A study of Mus musculus with 12 samples.

Results

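The enzymes examined here attach a polar group to drugs, hormones and metabolites, the conjugation step of detoxification often called phase II. They were taken by gene symbol from the RNA sequencing of 12 mouse livers: the UDP-glucuronosyltransferases Ugt1a, Ugt2a, Ugt2b, Ugt3a, the sulfotransferases Sult, the glutathione transferases Gsta, Gstk, Gsto, Gstp, Gstt and Gstz, and the genes named Nat followed by a digit. The Gstm genes were not among them. The rule gave 62 of 22322 gene symbols, each represented by its transcript with the highest mean RPKM (reads scaled to transcript length and sequencing depth) over the 12 livers. By family there were 9 Ugt1, 9 Ugt2, 2 Ugt3, 17 Sult, 4 Gsta, 1 Gstk, 2 Gsto, 2 Gstp, 4 Gstt and 1 Gstz symbols. There were also 3 arylamine N-acetyltransferases (Nat1, Nat2 and Nat3) and 8 other genes named Nat. Those 8 have unlike roles, and not all are conjugation enzymes.

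Bmal1, whose gene symbol in the tables is Arntl, encodes the transcription factor that pairs with CLOCK at the head of the circadian clock. WT mice carried floxed Bmal1 on both chromosomes (flox/flox), and no CRE recombinase is stated for them. Liver-specific Bmal1 cKO mice came from breeding that floxed line to mice with CRE under a liver-specific promoter, which is not named in the sources used here, so that exon 8 is lost in the liver. The labels give C57BL/6 mice of 8 weeks and the study's methods C57BL/6J males of 8 to 12 weeks, kept in darkness for the last 2 days, and livers were taken at circadian time 0 h (CT0) or 12 h (CT12) with 3 mice in each of the 4 groups. The sample titles name these times CT0 and CT12, whereas other labels call them ZT0 and ZT12, with ZT0 the time of lights on. Because only the cKO mice are stated to carry CRE, an effect of CRE itself and the loss of Bmal1 cannot be told apart. Each liver was 1 library made from total RNA.

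In hepatocytes, glucuronosyltransferases of the endoplasmic reticulum move glucuronic acid from UDP-glucuronic acid onto bilirubin, steroids, bile acids and drugs. Cytosolic sulfotransferases move sulfate from PAPS, and the soluble glutathione transferases join glutathione to electrophiles. The glutathione product is later trimmed to a cysteine conjugate, which an N-acetyltransferase can turn into a mercapturic acid for excretion.

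Depth, recovered from the whole-read steps of the RPKM values, was 16.9 to 19.02 M reads (M, 10 to the 6th) in WT at CT0, 13.41 to 16.13 M in WT at CT12, 11.46 to 14.9 M in cKO at CT0 and 13.24 to 14.42 M in cKO at CT12. Arntl, the targeted gene, stood at 16.4, 15.7 and 15.7 RPKM in WT at CT0, 5.92, 5.73 and 7.45 in cKO at CT0, 1.26, 0.68 and 1.21 in WT at CT12 and 4.37, 3.59 and 4.01 in cKO at CT12. It was therefore 2.5-fold lower in cKO at CT0 (log2 fold change -1.21 ± 0.13 (SE), adjusted p = 0.000582) and 3.8-fold higher at CT12 (log2 fold change 1.29 ± 0.13 (SE), adjusted p = 6.26e-05). The row counts the whole transcript and not exon 8 alone, so it does not measure the deletion. No library stood apart, with correlations across symbols of 0.979 to 0.989 within groups. Of the cell type marker lists, 1 of 6 hepatocyte markers was lower in cKO at both times (Alb), 1 of 5 cholangiocyte markers was higher at both times (Spp1) and 1 of 5 erythroid markers was higher at CT12 (Hba-a2), while none of 6 Kupffer cell, 5 endothelial and 5 stellate cell markers passed between genotypes. The summed hepatocyte markers ran from 44200 to 49400 RPKM in WT and 28500 to 33300 in cKO at CT0, and from 36900 to 45300 and 24600 to 28200 at CT12. The summed cholangiocyte markers ran from 48.6 to 64.8 RPKM in WT and 93.1 to 152 in cKO at CT0, and from 27.2 to 50 and 88.4 to 124 at CT12. Both differences lay in 1 gene each, since without Alb the hepatocyte sum ran from 11500 to 11900 RPKM in WT and 10100 to 12100 in cKO at CT0 and from 9750 to 11000 and 10400 to 11800 at CT12, and without Spp1 the cholangiocyte sum stayed between 0.708 and 5.68 RPKM in all 12 livers. Lymphocyte, exocrine pancreas and kidney tubule markers summed to at most 2.72, 1.62 and 0.0302 RPKM in any library, and 3 of 5 pancreas markers (Cpa1, Pnlip and Ctrb1) and the kidney markers Slc12a1 and Kap were at 0 in every library. The part of these differences in the results was not tested, and in whole liver fewer cells of a type and less RNA per cell cannot be told apart.

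Of the 62 symbols, 44 reached a mean of 1 RPKM in at least 1 group and were tested with limma on log2(RPKM + 1), on which scale every fold change below is given. Nat1 was the 1 tested symbol that reached it in a single group. At CT0, 3 of the 44 were higher and 6 lower in cKO at an adjusted p under 0.05, where 1.02% of all 10799 tested symbols were higher and 0.843% lower. At CT12, 3 were higher and 16 lower, against 6.97% higher and 3.49% lower among all tested symbols. The Ugt1a rows share reads, as shown next, and made up 5 of the lower calls at CT0 and 9 at CT12. Of the other 35 tested symbols, 3 were higher and 1 lower at CT0 and 3 higher and 7 lower at CT12. The median log2 fold change over the 44 was -0.09 at CT0 and -0.23 at CT12, beside 0.01 and 0.08 over all tested symbols. Over the 35 without the Ugt1a rows it was 0.07 at CT0 and -0.16 at CT12. In the 21 alternatives of processing, 1 of the 9 calls at CT0 (Nat8) and 13 of the 19 at CT12 passed every time. Those 13 were the 9 Ugt1a rows, which share reads, and Nat8, Nat10, Sult1a1 and Gsta3.

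**Figure D1:**
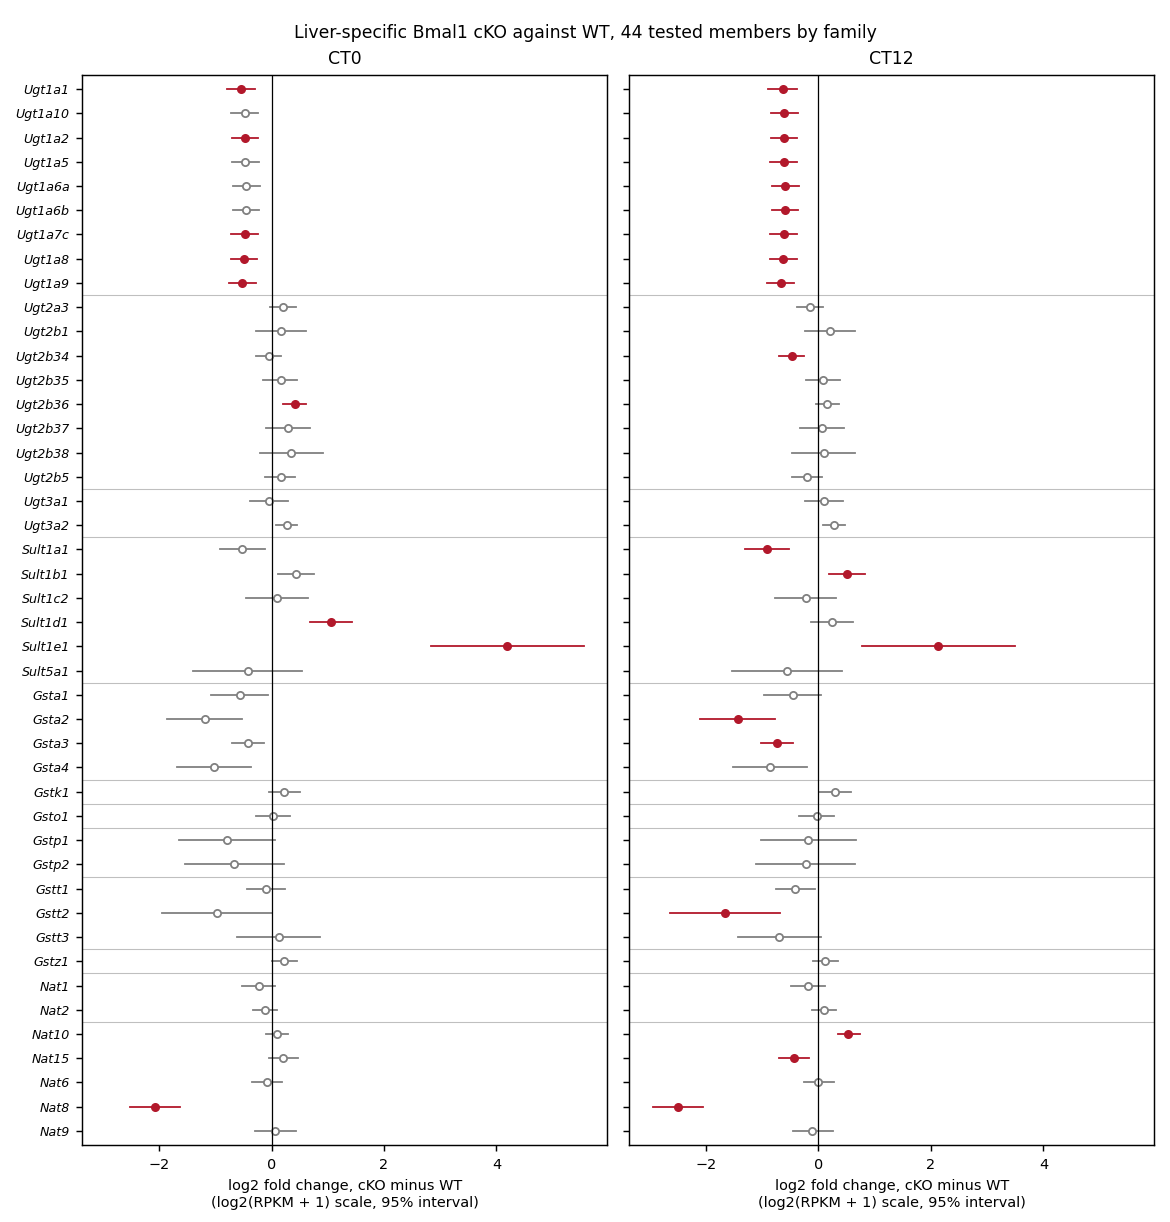
Log2 fold change of cKO against WT (log2(RPKM + 1) scale, x axis) for the 44 tested symbols by family (y axis) at CT0 and CT12. Points are limma estimates from 3 livers a group, lines are 95% intervals, and filled red points passed an adjusted p of 0.05. The Ugt1a rows lie left of 0 together, Nat8 lies far left at both times (-2.07 and -2.50) and Sult1e1 far right (4.19 and 2.13).

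The Ugt1 locus makes its enzymes from separate first exons, each with its own promoter, spliced to the same exons 2 to 5. Ugt1a1 conjugates bilirubin, the Ugt1a6 enzymes act on small planar phenols and Ugt1a9 on bulky phenols. The exon junctions of the 9 transcripts on chromosome 1 (NCBIM37, plus strand) are shown because they explain how the rows must be read. The last 15 bases of the first exon are in lower case and the first 15 bases of the shared exon 2, chr1:90111619-90111633, are in capitals.
Ugt1a10: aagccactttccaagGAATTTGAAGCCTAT
Ugt1a9: aagtcactttccaagGAATTTGAAGCCTAT
Ugt1a8: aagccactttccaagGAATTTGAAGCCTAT
Ugt1a7c: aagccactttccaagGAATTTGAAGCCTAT
Ugt1a6b: ggaaagctgactcagGAATTTGAAGCCTAT
Ugt1a6a: ggaaagctgactcagGAATTTGAAGCCTAT
Ugt1a5: aagcccctctctcagGAATTTGAAGCCTAT
Ugt1a2: aagcccctctctcagGAATTTGAAGCCTAT
Ugt1a1: aagcccctatcccagGAATTTGAAGCCTAT
The capitals are the same in all 9. Ugt1a10, Ugt1a8 and Ugt1a7c also end their first exons alike, as do Ugt1a5 with Ugt1a2 and Ugt1a6a with Ugt1a6b. The shared exons 2 to 5 hold 1318 bases between 90111619 and 90115579, against first exons of 879 to 954 bases. Reads on the shared exons were counted in every row of the locus, since the reads of the full Ugt1a10 transcript, the lowest of the 9 in all 12 libraries, equalled at least 74.2% of the reads of each other full transcript. The 9 rows are thus close to 1 measurement repeated.

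The rows kept for the 9 symbols all lay lower in cKO. They differ in length: those of Ugt1a6a, Ugt1a7c and Ugt1a10 have 608, 682 and 717 bases, and the others 2190 to 2249. Levels are therefore not comparable between these rows. Over 2265 bases Ugt1a6a averaged 272.5 RPKM, below Ugt1a1 at 338.2 over 2224 bases. The kept row of Ugt1a6a, the highest of the 9, was at 433, 559 and 565 RPKM in WT and 364, 371 and 395 in cKO at CT0, and at 637, 581 and 574 and 379.7, 378 and 431 at CT12. Ugt1a1 was at 318, 404 and 423 and 243, 268 and 264 RPKM at CT0, and at 461, 416 and 426 and 268, 256 and 312 at CT12. For neither gene did any cKO liver reach the lowest WT liver of its time. Ugt1a10 was at 336, 433 and 443 and 277, 290.4 and 296 RPKM at CT0, and at 493, 454 and 446 and 289.9, 286 and 334 at CT12. Ugt1a7c was at 356, 459 and 469 and 292, 306 and 312 at CT0, and at 525, 481 and 472 and 305, 303 and 352 at CT12. These values follow the same libraries up and down, WT replicate 1 being the low WT liver at CT0 in each. Ugt1a5 was at 259.6, 324 and 340.1 and 224, 216 and 222 RPKM at CT0, and at 370.3, 331 and 338 and 219, 207 and 249.6 at CT12. Ugt1a6b was at 254, 317 and 331 and 217, 216 and 223 at CT0, and at 365, 328 and 332 and 218, 213 and 250.2 at CT12. Again the genotypes did not overlap at either time. Ugt1a9 was at 253, 319.5 and 329 and 206, 208 and 211 RPKM at CT0, and at 378, 329 and 332 and 208, 203 and 242 at CT12. Ugt1a2 was at 247, 309.8 and 323 and 207, 208 and 213 at CT0, and at 359, 319 and 324 and 209.8, 202 and 242 at CT12. Ugt1a8 was at 242, 303 and 316 and 201, 203 and 205 at CT0, and at 351, 312 and 316 and 203, 196 and 235 at CT12. All 9 rows fell at CT12, with log2 fold changes of -0.59 to -0.67 and limma adjusted p of 0.00222 to 0.00438, in every alternative tried on the rows as deposited. At CT0 the log2 fold changes were -0.45 to -0.55, and Ugt1a1, Ugt1a2, Ugt1a7c, Ugt1a8 and Ugt1a9 passed with adjusted p of 0.0341 to 0.0485 while the other rows had 0.0511 to 0.0622. The CT0 calls lay near the threshold, and each was lost on leaving out any 1 of several libraries. That of Ugt1a1 was lost without WT CT0 replicate 2 (0.146) or 3 (0.135), any cKO CT0 replicate (0.0581 to 0.107) or WT CT12 replicate 1 or 3 (both 0.0501). Those of the others were lost without 6 to 10 of the 12 libraries in turn, with adjusted p of up to 0.2. Always among these were WT CT0 replicates 2 and 3 and every cKO CT0 replicate.

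To separate the genes, the reads of each full transcript above those of Ugt1a10 were divided by the length of its own first exon, a step chosen after seeing the data. Ugt1a10 is 0 by construction, and the other values are too low by whatever reads lie on its own first exon. At most 7.95% of the 50-base windows of a first exon occur in another first exon of the locus, except for Ugt1a6a and Ugt1a6b, with 47.4% and 48.3%. Ugt1a1 then held 186, 247 and 262 RPKM in WT and 104, 157 and 142 in cKO at CT0, and 271, 254 and 269 and 156, 146 and 186 at CT12. Every cKO liver was below every WT liver of the same time (log2 fold change -0.79 ± 0.16 (SE), adjusted p = 0.0315 at CT0, and log2 fold change -0.70 ± 0.16 (SE), adjusted p = 0.0162 at CT12). Ugt1a9 held 19.1, 31 and 21.9 RPKM in WT and 5.34, 4 and 4.86 in cKO at CT0, and 55.9, 31.3 and 27.6 and 3.71, 11.4 and 5.91 at CT12. The highest cKO liver was thus below the lowest WT liver, and the mean was 5.07-fold lower at CT0 and 5.45-fold lower at CT12. Its log2 fold changes were -2.10 ± 0.33 (SE, limma adjusted p = 0.00792) and -2.34 ± 0.33 (SE, adjusted p = 0.000712), against -0.52 and -0.67 for its row as deposited.

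The Ugt1a6 first exons did not pass between genotypes. Ugt1a6a held 41.1, 48.8 and 52.4 RPKM in WT and 48.9, 38.4 and 52 in cKO at CT0, and 55, 51.5 and 50.2 and 44.1, 49.2 and 47.9 at CT12. Its genotypes overlapped at CT0 and lay side by side without overlap at CT12, and the 95% intervals of the log2 fold change were -0.30 to 0.23 (adjusted p = 0.935) and -0.41 to 0.11 (adjusted p = 0.496). For Ugt1a6b the intervals were -0.20 to 0.28 and -0.36 to 0.12. The fall of the Ugt1a6a row of -0.59 at CT12 therefore became -0.15 once the shared exons were set aside. Ugt1a5 held 38.9, 47 and 53.1 RPKM in WT and 51.3, 25.8 and 36.6 in cKO at CT0, and 42.4, 40.2 and 46.6 and 34.8, 22.9 and 29.4 at CT12. It overlapped at CT0 and not at CT12, and passed at neither (adjusted p = 0.548 and 0.121). Ugt1a2 ran from 8.35 to 16.5 RPKM over all 12 livers, Ugt1a7c from 1.08 to 6.30 and Ugt1a8 from 0.096 to 4.09, and none of the 3 passed. For Ugt1a8 every cKO liver was below every WT liver of its time. Its log2 fold changes were -0.86 at CT0 (limma adjusted p = 0.212) and -1.04 at CT12 (adjusted p = 0.0503). Ugt1a7c (-0.92, adjusted p = 0.0542) and Ugt1a2 (-0.20, adjusted p = 0.525) were apart in this way at CT12 and overlapped at CT0. The full Ugt1a7c transcript runs further at its 3′ end than the others, so its value includes reads there.

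The first exons together came to 82.3% to 85.5% of the level over the shared exons in WT and 78.8% to 88.9% in cKO, per kilobase. Of the first-exon total, Ugt1a1 made up 56.8% ± 1.25 in WT and 47.9% ± 9.62 in cKO at CT0, and 56.7% ± 2.21 and 53.3% ± 3.71 at CT12 (SD, n = 3). Ugt1a9 made up 5.88% ± 1.14 in WT and 1.7% ± 0.271 in cKO at CT0, and 8.08% ± 2.74 and 2.33% ± 1.39 at CT12. Ugt1a6a correspondingly took 11.7% ± 0.557 and 16.6% ± 2.14 at CT0, and 11.2% ± 0.289 and 15.5% ± 1.16 at CT12. These shares add up to a fixed total, so a lower share of one first exon raises the others. Ugt1a6a and Ugt1a6b share 47.4% and 48.3% of their first-exon windows with each other. Reads there may count in both genes and so be repeated in the total.

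**Figure D2:**
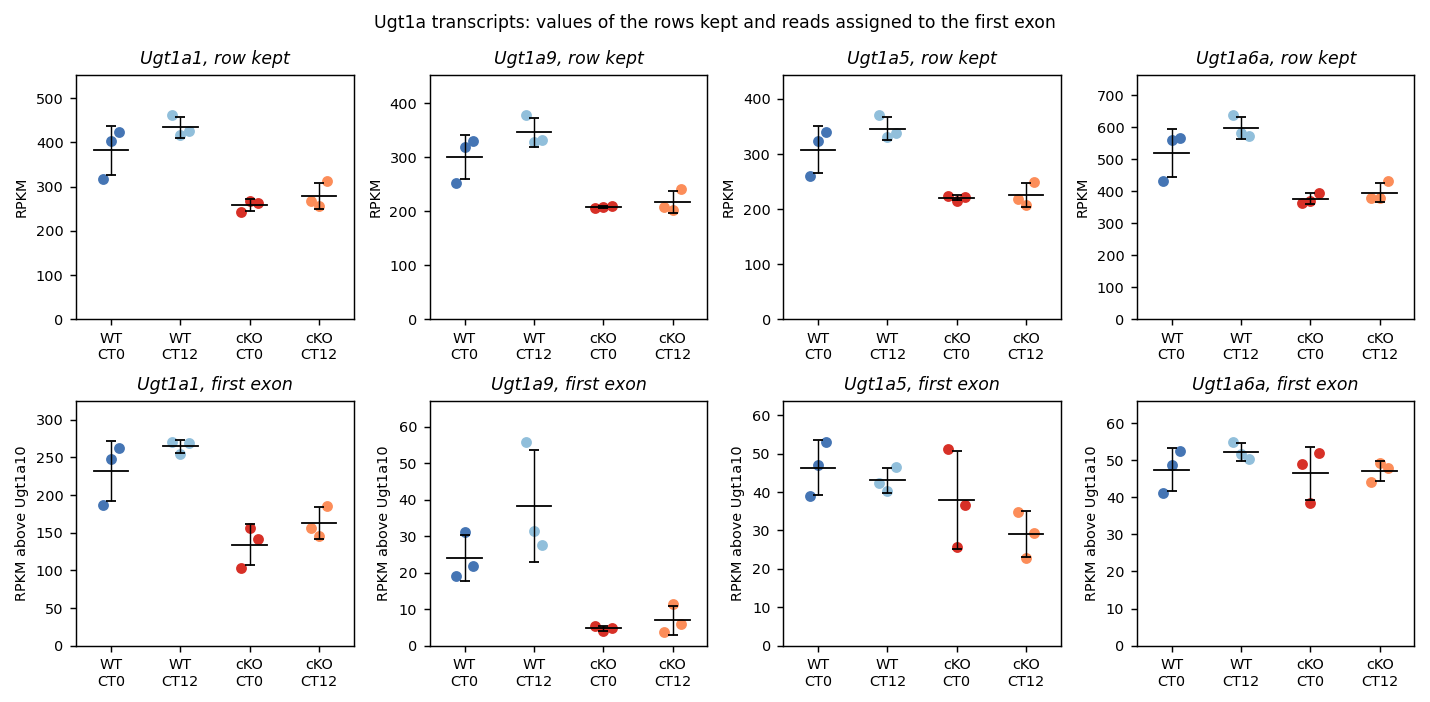
RPKM of the deposited row (top) and RPKM of the first exon above the Ugt1a10 transcript (bottom) for 4 Ugt1a genes in each liver. Points are livers, lines are means with SD (n = 3). The 4 rows look alike at the top, while below the cKO livers are lower for Ugt1a1 and, at 3.71 to 11.4 RPKM, for Ugt1a9, and near the WT livers for Ugt1a6a.

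The Ugt2 genes of chromosome 5, whose enzymes conjugate steroids, bile acids and drugs, had few calls between genotypes: 1 of 8 tested was higher at CT0, where 1.02% of all tested symbols were, and 1 was lower at CT12, where 3.49% were, with a median log2 fold change of 0.19 and 0.07. Ugt2b36 was the highest of the family by the row kept, which has 773 bases. Its row of 1888 bases averaged 302 RPKM over the 12 livers, below Ugt2b5 at 362.1 over 1858 bases. The kept row was at 376, 390 and 414 RPKM in WT and 525, 474 and 571 in cKO at CT0, and at 541, 527 and 495 and 545, 634 and 576 at CT12. All cKO livers were above all WT livers at both times, with the wider gap at CT0 (log2 fold change 0.41 ± 0.09 (SE), adjusted p = 0.0482). That call was lost without any 1 of 11 libraries, all but cKO CT0 replicate 2, with adjusted p of up to 0.176, and at CT12 the adjusted p was 0.3. Ugt2b34 was at 129, 136 and 129 RPKM in WT and 112, 134 and 136 in cKO at CT0, and at 187, 172 and 204 and 131, 149 and 123 at CT12. The genotypes overlapped at CT0 and separated at CT12, where Ugt2b34 fell (log2 fold change -0.48 ± 0.10 (SE), adjusted p = 0.0107) in every alternative but the one without WT CT12 replicate 3 (0.0516). Ugt2a3, Ugt2b1, Ugt2b35, Ugt2b37, Ugt2b38 and Ugt2b5 did not pass at either time, with log2 fold changes of -0.20 to 0.35. Over the 12 livers Ugt2b1 ran from 184 to 343 RPKM, Ugt2a3 from 126 to 198, Ugt2b35 from 79.7 to 118, Ugt2b37 from 5.86 to 13.5 and Ugt2b38 from 2.81 to 10.3. Ugt2b5 and Ugt2b38 share 41.7% and 37.4% of their 50-base windows with other genes of the cluster, so reads may be split between them.

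The Ugt2 genes were then compared between the times of day. Of the 8 tested, 4 were higher at CT12 than at CT0 in WT and none passed in cKO, where 3.71% and 1.10% of all tested symbols were higher. All 8 had positive log2 fold changes in both genotypes, with medians of 0.42 in WT and 0.18 in cKO. Ugt2b38 had the largest, 0.82 in WT and 0.56 in cKO, and passed in neither. Ugt2b5 was at 276, 285 and 299.7 RPKM at CT0 and 460, 451 and 433 at CT12 in WT, and at 301, 294 and 369 and 349, 470.5 and 359 in cKO. The WT times were well apart (log2 fold change 0.64 ± 0.12 (SE), adjusted p = 0.00585) and the cKO times overlapped (log2 fold change 0.28 ± 0.12 (SE), adjusted p = 0.221). Ugt2b34 rose in WT by a similar step (log2 fold change 0.51 ± 0.10 (SE), adjusted p = 0.0083), with 0.08 ± 0.10 (SE) in cKO. Ugt2b36 and Ugt2a3 also rose in WT, by 0.40 (adjusted p = 0.0164) and 0.41 (adjusted p = 0.0313) on the log2 scale. The first of these calls was lost without WT CT0 replicate 1 (0.0558) or 2 (0.0588) or WT CT12 replicate 1 (0.0581), and the second without any WT CT0 replicate (0.0526 to 0.0977) or WT CT12 replicate 1 (0.108) or 3 (0.0862). The difference between the genotypes in the change with time did not pass for any Ugt2 gene, being -0.43 ± 0.14 (SE) for Ugt2b34 (adjusted p = 0.219) and -0.36 ± 0.15 (SE) for Ugt2a3 (adjusted p = 0.357).

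**Figure D3:**
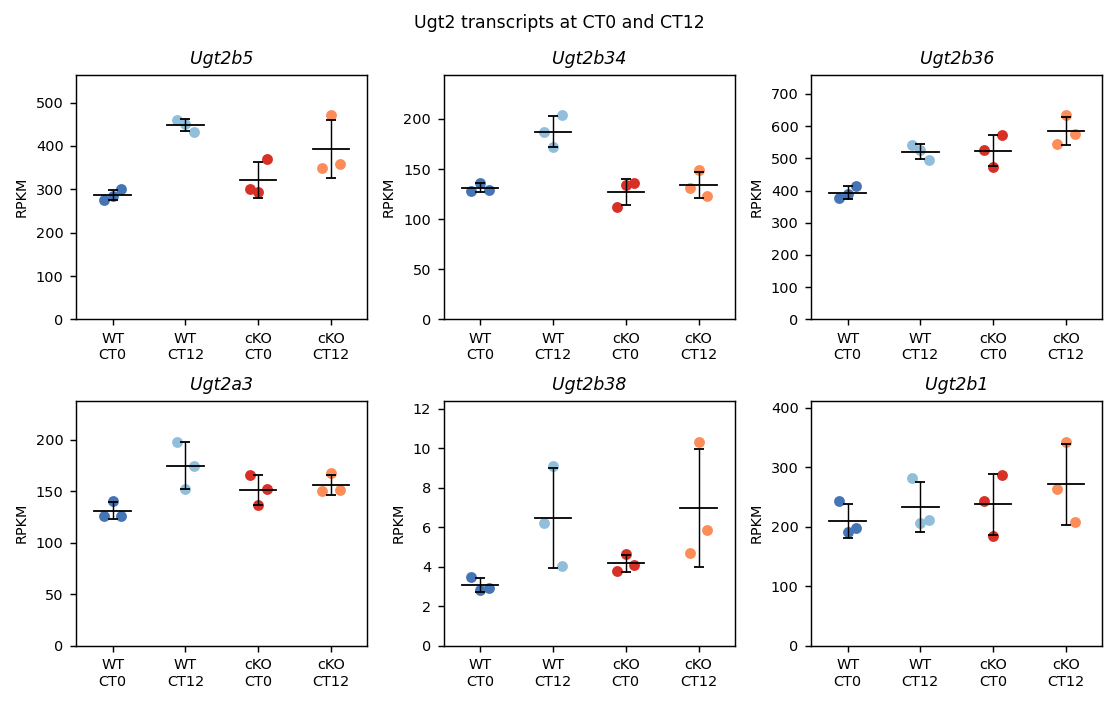
RPKM of 6 Ugt2 genes in each liver (points), with the mean and SD of each group (lines, n = 3). In WT the CT12 livers lie above the CT0 livers for Ugt2b5, Ugt2b34, Ugt2b36, Ugt2a3 and Ugt2b38, and for Ugt2b38 in cKO too. Ugt2b1 overlaps across all 4 groups.

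The Ugt3a enzymes use sugars other than glucuronic acid. Ugt3a2, the higher of the pair, was at 148, 144 and 156 RPKM in WT and 173, 179 and 188 in cKO at CT0, and at 158, 134 and 156 and 172, 196 and 175 at CT12. All cKO livers were above all WT livers of their time, by a difference too small to pass (log2 fold change 0.27 ± 0.09 (SE), adjusted p = 0.171, and 0.28 ± 0.09 (SE), adjusted p = 0.0714). Ugt3a1 was at 24.3 to 37.2 RPKM over the 12 livers and its genotypes overlapped.

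Among the sulfotransferases, 6 of 17 were tested. At CT0 2 of them were higher in cKO, beside 1.02% of all tested symbols, and at CT12 2 were higher and 1 lower, beside 6.97% and 3.49%. Sult1e1, the estrogen sulfotransferase, held 92, 1 and 39 reads in WT and 1444, 477 and 575 in cKO at CT0, and 3, 3 and 7 and 208, 79 and 21 at CT12. As levels these were 3.86, 0.0417 and 1.83 RPKM in WT and 76.9, 26.6 and 39.8 in cKO at CT0, and 0.148, 0.162 and 0.414 and 11.4, 4.74 and 1.22 at CT12. Every cKO liver was above every WT liver of the same time, although the livers of a group differed widely among themselves, most of all WT at CT0, and the WT livers at CT12 held only a few reads. The group means differed 25-fold at CT0 (log2 fold change 4.19 ± 0.62 (SE), adjusted p = 0.00626) and 24-fold at CT12 (log2 fold change 2.13 ± 0.62 (SE), adjusted p = 0.0497). Single livers moved these ratios: at CT0 it was 51-fold without WT replicate 1, and at CT12 12.3-fold without cKO replicate 1 and 37.5-fold without WT replicate 3. With 1 added to low RPKM values the log scale compresses the CT12 difference, which was 3.70 with 0.1 added. The CT0 call held in every alternative but the one with no filter (0.0714). With single libraries left out, the CT12 call was lost without any WT CT12 replicate (0.105 to 0.117), cKO CT12 replicate 1 (0.15) or 2 (0.121), WT CT0 replicate 3 (0.0664), or cKO CT0 replicate 2 (0.0517) or 3 (0.0652).

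Sult1e1 was also the only member that passed between times in cKO, falling by 3.04 ± 0.62 (SE) on the log2 scale from CT0 to CT12 (adjusted p = 0.031), where 1.32% of all tested symbols were lower. That call was lost without cKO CT0 replicate 1 (0.079) or 3 (0.0828) or cKO CT12 replicate 2 (0.0772) or 3 (0.0653). In WT the change was -0.98 ± 0.62 (SE, adjusted p = 0.349), and the difference between the genotypes did not pass (adjusted p = 0.363). The gene lies at chr5:88004993-88020636, minus strand (NCBIM37), and none of its 50-base windows occurs in another gene's transcripts.

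Sult1d1, which sulfates catecholamines, was at 41.4, 47.5 and 61.8 RPKM in WT and 98.6, 99 and 117 in cKO at CT0, and at 91.3, 64.6 and 71.6 and 100.3, 73.2 and 94.3 at CT12. Every cKO liver exceeded every WT liver at CT0 (log2 fold change 1.06 ± 0.17 (SE), adjusted p = 0.00844), and the groups overlapped at CT12 (log2 fold change 0.24 ± 0.17 (SE), adjusted p = 0.438). The CT0 call was kept without any 1 library and lost with no filter (0.0724). WT livers gained 0.59 between CT0 and CT12 (adjusted p = 0.0434), a call lost without WT CT0 replicate 1 (0.145) or 2 (0.121), WT CT12 replicate 1 (0.148) or 3 (0.0911), cKO CT0 replicate 2 (0.0538) or 3 (0.0502) or cKO CT12 replicate 3 (0.0526). The gap between genotypes was not shown to differ between the times (difference -0.83 ± 0.24 (SE), adjusted p = 0.148).

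Sult1a1, the main phenol sulfotransferase and the highest of the family, moved the other way. It lies at chr7:133816379-133819946, minus strand (NCBIM37) and was at 239, 235 and 259.5 RPKM in WT and 159.6, 151 and 206 in cKO at CT0, and at 269, 201 and 240.1 and 132, 92 and 159 at CT12. No cKO liver reached the WT range of its time, and the fall passed at CT12 (log2 fold change -0.91 ± 0.18 (SE), adjusted p = 0.00721) in every alternative and not at CT0 (log2 fold change -0.52 ± 0.18 (SE), adjusted p = 0.203). Sult1b1, which sulfates thyroid hormone, was at 15.7, 15.9 and 18.5 RPKM in WT and 21.8, 23.6 and 23.7 in cKO at CT0, and at 21.5, 15.2 and 17.8 and 23.9, 22.7 and 32.7 at CT12. The cKO livers were all higher at both times, by 0.44, adjusted p = 0.173 at CT0, and by 0.51, adjusted p = 0.0451 at CT12 on the log2 scale. The CT12 call was lost without any of 9 libraries: each WT CT0 replicate (0.0517 to 0.0632), WT CT12 replicate 2 (0.151) or 3 (0.119), cKO CT0 replicate 2 (0.0584) or 3 (0.0606) and cKO CT12 replicate 1 (0.0585) or 3 (0.146). Sult1c2 at 1.42 to 3.91 RPKM and Sult5a1 at 1.31 to 9.83 RPKM overlapped between genotypes. Sult1b1, Sult1d1 and Sult1e1 are neighbours on chromosome 5, between positions 87942364 and 88020636 of NCBIM37.

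The other 11 Sult symbols did not reach 1 RPKM in any group. Sult1c1, Sult2a1, Sult2a3, Sult2a4, Sult2a5, Sult2a6 and Sult6b1 were at 0 in every library, as were Gstt4 and Nat3. A count of 0 allows up to 3 reads, which on Sult2a1 would be 0.156 RPKM in the deepest library and 0.258 in the shallowest, for counting error only. No change of these genes was detectable at this depth.

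**Figure D4:**
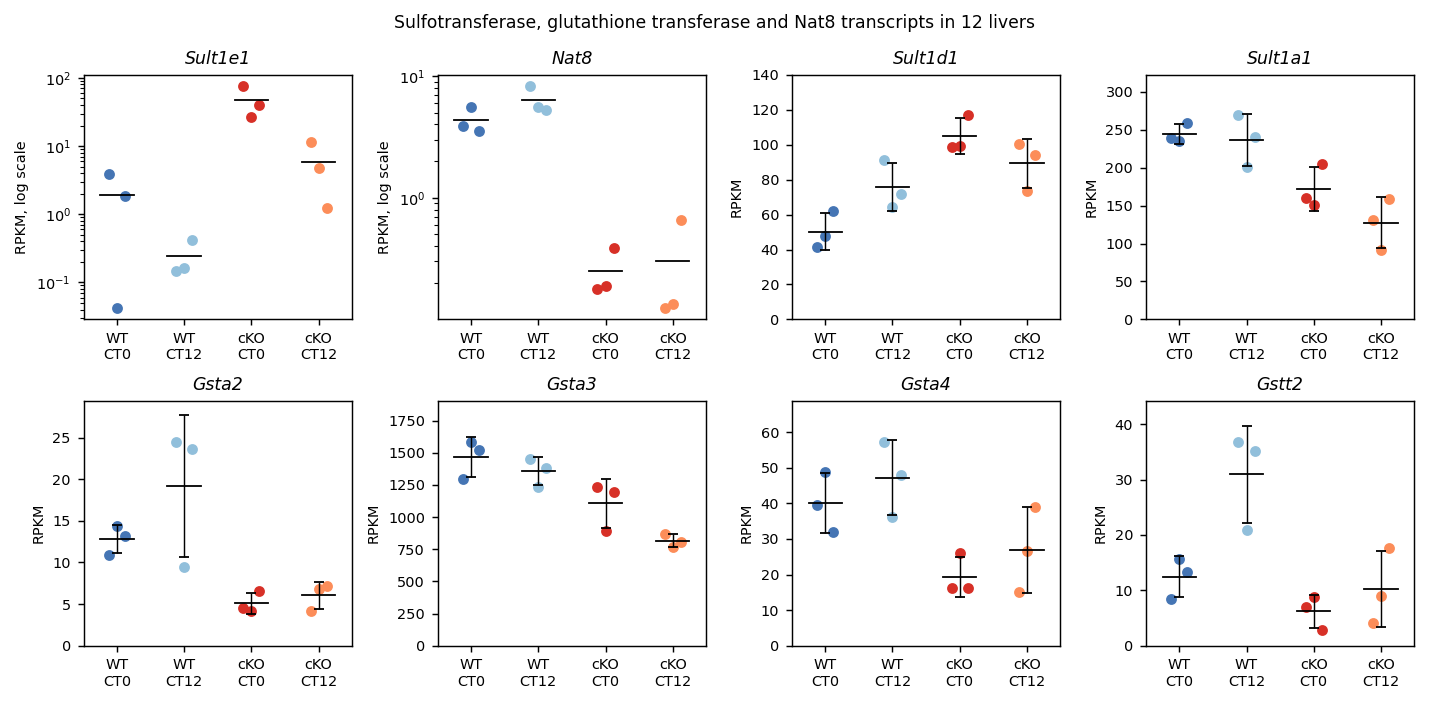
RPKM of 8 members in each liver (points) with group means (lines, n = 3). Sult1e1 and Nat8 are on log axes, and the others are on linear axes with SD. Sult1e1 and Sult1d1 are higher in cKO at CT0, Nat8 is below 1 RPKM in all cKO livers, and Sult1a1, Gsta2 and Gsta3 are lower in cKO at CT12.

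Of the 14 soluble glutathione transferases 12 were tested. None passed at CT0 and 3 were lower at CT12, where 3.49% of all tested symbols were, all of the Gsta and Gstt families. Gsta3 (chr1:21230670-21255442, plus strand, NCBIM37), the highest of all 62 symbols, was at 1295, 1586 and 1520 RPKM in WT and 1235, 888 and 1195 in cKO at CT0, and at 1450, 1236 and 1382 and 868, 769 and 808 at CT12. All cKO livers lay below all WT livers, closely at CT0 (log2 fold change -0.42 ± 0.13 (SE), adjusted p = 0.149) and by a wide gap at CT12 (log2 fold change -0.73 ± 0.13 (SE), adjusted p = 0.00378), and the CT12 call held in every alternative. Gsta2 (chr9:78178825-78203595, minus strand) was at 10.9, 14.4 and 13.1 RPKM in WT and 4.55, 4.2 and 6.52 in cKO at CT0, and at 24.5, 9.39 and 23.6 and 4.22, 6.77 and 7.15 at CT12. Again no cKO liver reached a WT liver, and the mean was 2.52-fold lower at CT0 (log2 fold change -1.19 ± 0.30 (SE), adjusted p = 0.0751) and 3.17-fold lower at CT12 (log2 fold change -1.43 ± 0.30 (SE), adjusted p = 0.0102). The CT12 call was kept without any 1 library and lost with no filter (0.0664), and WT CT12 replicate 2 was far below the other WT livers of its time. Gsta4, which acts on the lipid aldehyde 4-hydroxynonenal, was at 39.6, 48.9 and 32 RPKM in WT and 16.1, 25.9 and 16.2 in cKO at CT0, and at 57.3, 36.3 and 48.1 and 15.1, 26.7 and 39.1 at CT12. Its genotypes were apart at CT0 and overlapped at CT12 through cKO replicate 3, and it passed at neither time (log2 fold change -1.03 ± 0.30 (SE), adjusted p = 0.124, and -0.86 ± 0.30 (SE), adjusted p = 0.0952). Gsta1 was low, at 0.321 to 2.22 RPKM or 4 to 37 reads, and did not pass. Gsta1 and Gsta2 share 89.7% and 65.4% of their 50-base windows with each other or with Gm3776 and Gm10639, so their reads cannot be assigned with certainty, whereas Gsta3 and Gsta4 share none.

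Of 3 tested theta class genes 1, already counted above, was lower in cKO at CT12, where 3.49% of all tested symbols were. Gstt2 (chr10:75294590-75297626, minus strand) was at 8.38, 15.7 and 13.2 RPKM in WT and 6.95, 8.71 and 2.87 in cKO at CT0, and at 36.8, 20.8 and 35.2 and 4.05, 8.98 and 17.6 at CT12. The groups overlapped at CT0 and were apart at CT12 (log2 fold change -1.66 ± 0.45 (SE), adjusted p = 0.0343). The mean was 3.03-fold lower there, and 4.75-fold without cKO replicate 3. Its CT12 call was lost without WT CT12 replicate 1 (0.105) or 3 (0.112) or cKO CT12 replicate 1 (0.105) or 2 (0.0845). Gstt1, the highest of the class, was at 153, 179 and 195 RPKM in WT and 198, 149 and 146 in cKO at CT0, and at 152, 129 and 147 and 92.8, 97 and 134 at CT12. It overlapped between genotypes at both times and did not pass (adjusted p = 0.833 and 0.119), nor did Gstt3 at 14.3 to 73.8 RPKM.

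The other classes did not pass between genotypes. Gstp1, the pi class enzyme, was at 461, 468 and 334 RPKM in WT and 198, 211 and 335 in cKO at CT0, and at 567, 797 and 277 and 473, 683 and 264 at CT12. Replicate 3 was the lowest liver at CT12 in both genotypes, and the 95% interval of its log2 fold change at CT12 was -1.03 to 0.67, wide enough to hold a change in either direction. Gstp2, at 124 to 490 RPKM, shares 67.9% of its windows with Gstp1. Gstk1, a mitochondrial and peroxisomal enzyme, was at 83.5, 91.7 and 82.7 RPKM in WT and 114, 99.8 and 90.2 in cKO at CT0, and at 71.6, 69.3 and 84.9 and 76.4, 98.8 and 102 at CT12. Gstz1, which isomerises maleylacetoacetate in tyrosine breakdown, was at 350.4, 318 and 352 and 438, 364 and 400 RPKM at CT0, and at 347, 291 and 324 and 336, 329 and 382 at CT12. Their log2 fold changes were 0.12 to 0.29, with adjusted p of 0.184 to 0.501. Gsto1 was at 35.5, 43.5 and 41 RPKM in WT and 35.7, 40.2 and 46 in cKO at CT0, and at 58.9, 40.3 and 53.7 and 46.4, 49.7 and 51.5 at CT12. The genotypes overlapped, with 95% intervals of -0.28 to 0.32 and -0.34 to 0.27, and Gsto2 was below 1 RPKM.

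The arylamine N-acetyltransferases acetylate aromatic amines and hydrazine drugs. Nat2, the higher of them, was at 8.44, 8.39 and 9.74 RPKM in WT and 7.74, 7.64 and 8.92 in cKO at CT0, and at 6.38, 7.06 and 6.97 and 6.89, 7.12 and 8.17 at CT12. The genotypes overlapped at both times, and 95% intervals of -0.33 to 0.10 and -0.11 to 0.32 bound the log2 fold change. In WT Nat2 fell by 0.33 on the log2 scale between CT0 and CT12 (adjusted p = 0.0476), where 7.88% of all tested symbols were lower, and that call was lost without any of 10 libraries, with adjusted p of up to 0.16, those other than cKO CT0 replicate 3 and cKO CT12 replicate 3. Nat1 held 9 to 32 reads and did not pass.

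The other genes named Nat have unlike roles, and Nat8 stood out among them. Its enzyme acetylates cysteine conjugates, the last step from a glutathione conjugate to a mercapturic acid. Nat8 held 82, 119 and 67 reads in WT and 3, 3 and 5 in cKO at CT0, and 151, 91 and 79 and 2, 2 and 10 at CT12. In RPKM these were 3.86, 5.57 and 3.53 and 0.179, 0.188 and 0.388 at CT0, and 8.34, 5.52 and 5.25 and 0.123, 0.135 and 0.652 at CT12. The cKO livers held at most 10 reads where no WT liver held fewer than 67, at either time. The mean was 17.2-fold lower at CT0 (log2 fold change -2.07 ± 0.20 (SE), adjusted p = 0.000229) and 21-fold lower at CT12 (log2 fold change -2.50 ± 0.20 (SE), adjusted p = 1.22e-05), and both calls held in all 21 alternatives. The CT12 ratio rested on cKO replicate 3, with 10 reads, and was 49.4-fold without it. With 0.1 in place of 1 added to the RPKM the log2 fold changes were -3.67 and -4.22. The gene lies at chr6:85780382-85782076, minus strand (NCBIM37), and 5.68% of its 50-base windows occur in Cml1, a neighbour of the same gene group.

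Nat10, which acetylates cytidine in RNA, was at 7.35, 7.28 and 6.87 RPKM in WT and 8.49, 7.46 and 7.4 in cKO at CT0, and at 6.68, 5.76 and 6.21 and 8.74, 9.83 and 9.75 at CT12. Its cKO livers were above the WT livers at both times, narrowly at CT0 and clearly at CT12 (log2 fold change 0.53 ± 0.09 (SE), adjusted p = 0.00256), in every alternative. Nat15 was at 35.5, 30.1 and 28.2 RPKM in WT and 36.5, 33 and 39.4 in cKO at CT0, and at 49.1, 46.6 and 52.4 and 34.3, 43 and 32.3 at CT12. The WT livers at CT12 were higher than those of the other groups, so that Nat15 rose with time in WT (log2 fold change 0.65 ± 0.12 (SE), adjusted p = 0.00556) and was lower in cKO than in WT at CT12 (log2 fold change -0.43 ± 0.12 (SE), adjusted p = 0.0404). The latter call was lost without WT CT0 replicate 2 (0.0589), any WT CT12 replicate (0.064 to 0.137) or cKO CT12 replicate 1 (0.108) or 3 (0.138). Nat6 at 12.4 to 18.1 RPKM and Nat9 at 12.1 to 19.8 RPKM overlapped between genotypes at both times, and Nat14, Nat8b and Nat8l were below 1 RPKM.

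Over all members, the change of the genotype difference between the times passed for none of the 44, where 1.49% of all tested symbols passed. At an unadjusted p under 0.05, which 12.3% of all tested symbols reached, there were 6, Nat10, Nat15, Sult1d1, Sult1e1, Ugt2a3 and Ugt2b34, and the lowest limma adjusted p was 0.107, for Nat15. A member that passed at 1 time alone is therefore not shown to differ between CT0 and CT12 in its response. Across time in WT, 6 members were higher and 1 lower at CT12, where 3.71% and 7.88% of all tested symbols were.

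Genes that supply or follow these reactions were taken from 7 lists. Of their 48 tested genes, 2 were higher and 2 lower in cKO at CT0, beside 1.02% and 0.843% of all tested symbols, and 5 were higher and 12 lower at CT12, beside 6.97% and 3.49%, with medians of -0.02 and -0.07. For UDP-glucuronic acid supply, Ugp2, which makes UDP-glucose, was higher at CT0 (0.77, adjusted p = 0.0343), Pgm1 was higher at CT12 (0.47, adjusted p = 0.0146) and the transporter Slc35d1 was lower at CT12 (-0.54, adjusted p = 0.0306), of 6 tested. Pgm1 was low, at a mean of 1.713 RPKM in WT and 2.765 in cKO at CT12. Pgm2, at 85.52 and 75.02, did not pass. None of 7 genes of PAPS supply and sulfate handling passed at either time, with medians of -0.03 and 0.03. On the glutathione list of 9 tested, Ggct, which breaks down gamma-glutamyl peptides, was higher at both times (0.54, adjusted p = 0.0287, and 0.71, adjusted p = 0.00128), Cbs was higher at CT12 and Ggt6 and Oplah were lower at CT12 (-0.71, adjusted p = 0.0157, and -0.39, adjusted p = 0.0248). Ggct was low, with group means of 0.847 to 2.03 RPKM. Gclc, Gclm and Gss, which make glutathione, did not pass between genotypes. Cbs, which diverts homocysteine toward cysteine, was at 236, 194 and 195 RPKM in WT and 269, 243 and 269 in cKO at CT0, and at 88.3, 92 and 91 and 242, 243 and 237 at CT12. Only the WT livers at CT12 were low, and the rise in cKO at CT12 was 1.40 ± 0.09 (SE, adjusted p = 2.27e-06).

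Of 4 tested microsomal glutathione transferases and epoxide hydrolases, Ephx2 was lower at both times (-0.57, adjusted p = 0.0457, and -0.62, adjusted p = 0.00852) and Mgst3 at CT12 (-0.70, adjusted p = 0.0335). On the methyl conjugation list of 9, As3mt, the arsenic methyltransferase, was at 23.4, 22.7 and 24.5 RPKM in WT and 14.9, 9.35 and 11.5 in cKO at CT0, and at 23, 24.4 and 22.5 and 7.13, 6.82 and 8.69 at CT12. No cKO liver came near the WT livers (-0.95, adjusted p = 0.00531, and -1.51, adjusted p = 3.17e-05). Inmt and Ahcy were lower at CT12 (-1.47, adjusted p = 1.15e-05, and -0.87, adjusted p = 0.00346). For amino acid conjugation, 1 of 8 was higher (Gm4952) and 3 were lower (Glyat, Acsm3 and Acsm5) at CT12 and none passed at CT0. Of 5 tested deconjugating enzymes, Acy1, which removes acetyl groups from amino acids, was lower at CT12 (-0.75, adjusted p = 0.0256). Without 1 library at a time, 3 of the 4 calls at CT0 on these lists were lost for at least 1 choice of library (adjusted p of up to 0.162) and 10 of the 17 at CT12 (up to 0.133). The calls of As3mt at both times, and of Cbs, Ggct, Ephx2, Inmt, Ahcy and Glyat at CT12, were kept in each case.

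Promoters were searched for sequences that clock factors and the antioxidant factor NRF2 are known to bind, in the 250 bases before each start in the RefSeq table (GRCm38.p6), which held 58 promoters of 48 of the 62 symbols. CACGTG, the E-box bound by CLOCK and BMAL1, was in 0 of the 58 and in 6.02% of all 32851 promoters in the table. TTATGTAA or TTACGTAA, the D-box, was in 1 (Ugt2b1) or 1.72% against 0.931%, and TGACNNNGC, the core of the antioxidant response element, in 1 (Gsta3) or 1.72% against 10.2%. AGGTCA, the core of the element bound by ROR and REV-ERB factors, was in 11 or 19% against 14%, each motif on either strand. The windows of Sult1e1 and Ugt1a9, chosen after their values were seen, are shown because they are the member with the largest rise and a first exon that fell at both times. That core is in capitals.
Sult1e1, chr5:87591612-87591861, minus strand: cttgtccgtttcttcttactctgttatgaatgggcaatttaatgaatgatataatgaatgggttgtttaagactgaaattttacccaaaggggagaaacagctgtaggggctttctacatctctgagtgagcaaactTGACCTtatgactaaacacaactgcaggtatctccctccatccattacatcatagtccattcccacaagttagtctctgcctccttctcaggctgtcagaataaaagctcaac
Ugt1a9, chr1:88070529-88070778, plus strand: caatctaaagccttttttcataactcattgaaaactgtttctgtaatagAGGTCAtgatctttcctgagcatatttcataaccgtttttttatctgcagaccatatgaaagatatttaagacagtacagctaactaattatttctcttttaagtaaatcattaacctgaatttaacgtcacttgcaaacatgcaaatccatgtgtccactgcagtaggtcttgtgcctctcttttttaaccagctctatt
In Sult1e1 the core is on the opposite strand and so reads TGACCT. Other members that held it were Ugt1a7c, Ugt2b35, Ugt2b36, Ugt2b37, Ugt2b38, Ugt2b5, Sult1b1, Gstk1 and Nat14, while Nat8 and Ugt1a1 held none of the 4 motifs. Such a match is a description of letters and was not tied to any change. Only the letters given were searched, so other forms of these motifs were not counted.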

How the data were processed

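Liver RNA of 12 mice, 3 in each of 4 groups named by the sample titles, was sequenced after preparation with a TruSeq RNA v2 kit. The labels' protocol speaks of fewer mice per group than the titles do, and for numbers and times the titles were followed. The authors deposited 1 table of RPKM values per mouse, for 46585 transcripts. The submitters' processing notes name mm9, TopHat2 and bedtools 2.19.1, and the annotation and counting rules are not given in the sources used here. Multiplying RPKM by transcript length (GENCODE vM1 on NCBIM37, which held 95.5% of the transcripts) gave whole reads for 96.4% to 96.9% of low values, within 0.1 read. Reads were used to describe depth and low values, and intervals and floors cover counting error only.

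Symbols were represented by the transcript with the highest mean RPKM. Symbols whose mean reached 1 RPKM in any group were tested with limma 3.58.1 in R 4.3.3 on log2(RPKM + 1), as 4 group means over all 12 libraries with a trended prior, Benjamini-Hochberg adjustment over 10799 symbols and a threshold of 0.05. Every adjusted p in the report comes from limma. Those given for an alternative or for the first exons come from a refit in that setting, adjusted over the symbols tested there. The fit was tested on simulated data. Values were not corrected for sequence shared between genes, and fold changes of low genes are understated. The alternatives were another pseudocount, no filter or another filter, quantile or upper quartile scaling, averaged transcripts, no trend, a replicate block, only the groups compared, and each library left out. Marker sums without their highest gene were chosen after seeing the data. Values in every library were given for members that passed between genotypes and for the highest member of each family, and other tested members by range, with Gsta4 and Ugt2b5 added to the former after their values were seen. The members and lists were chosen with earlier results of these data known. Some genes of the marker and pathway lists are counted but not reported here by name. No source says whether mice of a group shared a litter or cage. Tables and figures were made with Python 3.11.15, pandas 2.3.3 and matplotlib 3.10.9.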

Additional observations from a re-analysis of the deposited data

Results flagged for a closer look

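None of the 44 tested members passed the test of a change in the genotype difference between CT0 and CT12, which does not show that they responded alike. On the lists of genes around them, 2 passed it. For Cbs the genotype difference was 1.08 higher on the log2 scale at CT12 than at CT0 (SE 0.12, limma adjusted p = 0.00121). WT livers averaged 208 ± 23.6 RPKM at CT0 and 90.4 ± 1.94 at CT12, and cKO livers 260.4 ± 15 and 241 ± 3.04 (SD, n = 3). For Inmt, an indolethylamine methyltransferase, the genotype difference was lower at CT12 than at CT0, by -1.39 (SE 0.17, adjusted p = 0.00187). WT livers averaged 418 ± 15 RPKM at CT0 and 719 ± 66.8 at CT12, and cKO livers 395 ± 49.2 and 259 ± 33.6 (SD, n = 3).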

How the results depend on the processing

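Directions of the 36 member calls were the same in every alternative, and 17 calls passed in all that used the rows as deposited. The CT12 calls of the Ugt1a rows, which share reads, made up 9 of these 17. Of the 36 calls, 17 were lost with no filter, 13 with only the groups compared and 10 with no trend. Where a call is said to be lost without named libraries, its losses in other alternatives are not all listed. At CT0 the 9 calls between genotypes became 1 with no filter, and 4 with no trend, with the replicate block and with only the groups compared. Leaving out single libraries gave 3 to 12. At CT12 the 19 calls ranged from 14 to 19 with single libraries left out and were within 1.5 times of 19 in every other alternative. For the change of the genotype difference with time, the 0 calls became 1 (Nat15) with averaged transcripts, and 0 to 1 with single libraries left out. For time in WT the 7 calls became 4 with no filter and 3 to 8 with single libraries left out. For time in cKO the 1 call became 0 with a pseudocount of 0.1, with no filter and with only the groups compared, 2 with quantile normalization, upper quartile scaling, averaged transcripts and the replicate block, and 0 to 2 with single libraries left out. The cause was not tested. Same-numbered replicates did not deviate together (mean r 0.008 over 18 pairs, -0.066 to 0.139, against -0.004 for other pairs), so the numbers were not taken as pairs. Using only first exons, an alternative chosen after seeing the data, moved Ugt1a6a at CT12 from -0.59 to -0.15, while Ugt1a1 and Ugt1a9 still passed at both times. The first-exon values were fitted in the main setting alone, with all libraries. How their calls depend on single libraries was not tested. With 3 livers a group, genes at a few reads a library, such as Nat1 and Gsta1, were measured too coarsely to show small changes.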
